A study of Mus musculus with 160 samples.

Results

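Among pools of Gata3-GFP+ endothelial cells (ECs) from the E10.5 aorta-gonads-mesonephros region (AGM), the pools with the blood regulator Runx1 at 5 or more CPM (counts per 1000000 gene counts) were compared with the pools below that level. Of 20 such pools in the table, 19 had over 500000 counts on genes and spike-in RNAs with under 20% on the spike-ins. Of these, 9 were Runx1-expressing and 10 were Runx1-low, out of 160 pools in the whole series. The pool that did not pass had 48731 gene counts and 86.7% of its counts on the spike-ins.

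All pools held 20 sorted cells from embryos of genotype Gata3-GFP +/-, a line in which green fluorescent protein reports Gata3, a transcription factor of the endothelium, sympathetic system and blood. ECs were sorted as VE-cadherin+ cells without the blood markers CD41 and CD45, and hematopoietic cells (HCs) by those markers. ECs without GFP, and HCs with and without it, all of E10.5 and with 20 passing pools each, appear below as reference levels. The study drew its cells from 3 to 5 biological replicates of 2 to 6 embryos each, but the labels do not tie a pool to its replicate. Pools can therefore share embryos, the p-values measure the spread between pools, and that spread may be technical. A pool is also a small bulk sample: fewer cells of a type and less RNA per cell cannot be told apart.

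Hemogenic endothelium is the small fraction of embryonic endothelium, mostly arterial, that turns into blood through the endothelial-to-hematopoietic transition (EHT). RUNX1 binds DNA with its partner CBFB and is needed for this step. It switches on the repressors GFI1 and GFI1B, which recruit LSD1 (Kdm1a) and silence the endothelial program while blood genes such as Spi1, Myb and Ptprc come on. The question of the split is which of these genes go with Runx1 when the sorted endothelium is divided by Runx1 alone.

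Runx1 (ENSMUSG00000022952, GRCm38 chr16:92601466-92826149, minus strand) is the gene by which the pools were divided: members were chosen by its measured CPM alone, so its values are a description and were not tested. The Runx1-low pools, named L1 to L10 by rising Runx1, ran from 0.447 to 4.63 CPM with a median of 1.53. The Runx1-expressing pools, E1 to E9, ran from 9.25 to 69.02 CPM with a median of 36.4. The pool just inside the threshold, E1, had 30 Runx1 counts and the pool just outside, L10, had 18. Even the highest Gata3-GFP+ EC pools stayed under the median of the HC pools, which was 86.4 CPM in the Gata3-GFP+ and 122.1 CPM in the Gata3-GFP- HCs. Gata3-GFP- ECs had a median of 1.83 CPM, and 1 of their 20 pools passed 5 CPM. That pool, at 6.87 CPM, had Gfi1 listed at 0 and Spi1 at 4.41 CPM.

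Runx1 has a distal and a proximal transcription start, and RUNX factors bind the letters TGTGGT, read as ACCACA on the other strand. The stretch below is shown because the distal start is the only Runx1 window of RefSeq sequence (GRCm38.p6, 250 bases before to 50 after a start) in which these letters were found. It lies at chr16:92826025-92826054 on the minus strand, begins 21 bases into the transcript, and has the 2 matches in capitals.
Runx1 distal start: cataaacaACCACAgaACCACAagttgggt
No match lay in the windows of the proximal Runx1 start, Gfi1, Myb, Mycn, Adgrg1, Ptprc or Coro1a, and Spi1 had no window. Of the 63 genes with a window among the hemogenic and hematopoietic lists below, 15.9% held a match on either strand, beside 18.9% of all 27025 genes. A match is a string of letters and not a binding site, and gene counts cannot tell transcripts of the distal start from those of the proximal one.

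The 19 pools looked endothelial throughout. The summed level of 20 endothelial identity genes (Cdh5, Pecam1, Kdr and others) was 13737 to 18264 CPM, whereas no Gata3-GFP+ HC pool exceeded 1218 CPM. Cdh5, which encodes the VE-cadherin used in the sort, lay between 763 and 1773 CPM in every pool. Total gene counts were 1400824 to 6006894 per pool. Gene counts, genes with at least 10 counts, the ratio of gene to spike-in counts and the mitochondrial share differed between the groups by less than exact permutation tests could separate (two-sided, adjusted p from 0.389 to 0.581 over these 4 measures). The ratio of gene to spike-in counts, a measure of RNA per pool, was lower by 0.31 on the log2 scale in the Runx1-expressing pools, with an exact p of 0.130.

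Some pools stood apart, and values of some genes without them are given below. Pool E6 held 4318 CPM of 14 mesenchymal markers, with 2600 CPM of Acta2 and 703 CPM of Col1a1, while no other pool exceeded 551 CPM of the list. Pool E9 had the highest sum of 15 macrophage markers, 289 CPM, where the others ranged from 32.6 to 174 CPM and the HC medians were 7102 and 10532 CPM. Pool L9 was the shallowest. Pools E7 and E8 had the most Spi1.

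**Figure D1:**
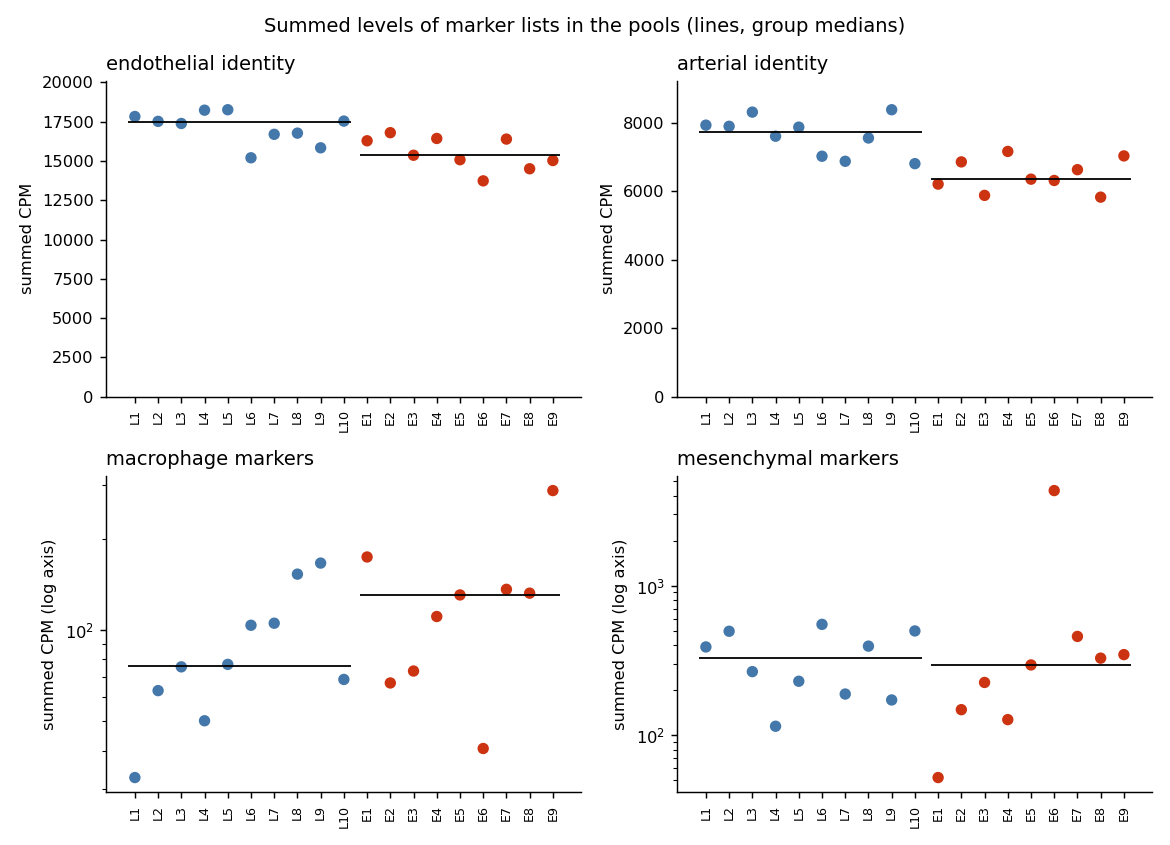
Summed CPM (y axis; log axis in the lower panels) of endothelial, arterial, macrophage and mesenchymal marker lists in each pool (x axis), blue for Runx1-low and red for Runx1-expressing pools, with lines at the group medians. E6 stands at 4318 CPM of mesenchymal and E9 at 289 CPM of macrophage markers, and the arterial medians are 7734 CPM in the low and 6348 CPM in the expressing pools.

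Across the transcriptome, no gene passed the test for a difference between Runx1-expressing and Runx1-low pools. Of 13838 genes tested with edgeR's quasi-likelihood test, without Runx1 itself, 0 (0.0%) reached an adjusted p under 0.01 with a log2 fold change beyond 0.1. At an unadjusted p under 0.05 there were 788 genes (5.69%), of which 368 (2.66%) were higher and 420 (3.04%) lower in the Runx1-expressing pools. In no gene were the CPM ranges of the groups separate (0 of 13838, 0.0%). The median log2 difference over all genes was -0.002. With 9 and 10 pools the median standard error was 0.76 for the 4081 genes under 10 CPM. It was 0.30 between 10 and 100 CPM and 0.14 between 100 and 1000 CPM. For the scarcer genes, among them Gfi1, only large differences could therefore have been detected, and Myb was too scarce to test. DESeq2 called 6 genes at the same threshold (913 at an unadjusted p under 0.05), and edgeR with all 4 E10.5 populations sharing the dispersion called 17 (1113), among them Spi1. The scanpy t-test with overestimated variance, the method that the study names, called 0 (823).

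The members of the RUNX1 and GFI1 axis gave no call. Gfi1 (ENSMUSG00000029275, chr5:107716657-107726036, minus strand) encodes the repressor that marks hemogenic endothelium. Its level in the low pools was 0 to 17.3 CPM with a median of 1.02, and in the expressing pools 0 to 34.1 CPM with a median of 9.62. The groups overlapped widely: 4 of 9 expressing pools lay above every low pool, E6 and E9 had no Gfi1 count, and L6 and L8 had 17.3 and 14.1 CPM at Runx1 levels of 1.66 and 1.76 CPM. A count of 0 allows up to 0.674 CPM in E6 and 1.07 CPM in E9, counting error only. The log2 difference was 1.66 ± 1.03 (SE; edgeR adjusted p = 0.968). Gfi1 was near 0 in the other E10.5 populations, with a median of 0.360 CPM in HCs with GFP and of 0 CPM in both populations without it.

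The other tested genes of this axis had smaller log2 differences than Gfi1. Cbfb, the DNA-binding partner of RUNX1, had 49.2 to 130.6 CPM in the low and 62.6 to 123.1 CPM in the expressing pools, a log2 difference of 0.01 ± 0.18 whose sign turned with the scaling. Gfi1b, the GFI1 paralog, had 10 or more counts only in E7 (8.46 CPM), and Runx2 and Runx3, the other RUNX factors, were also too scarce to test. The corepressor genes Kdm1a (0.25 ± 0.13), Hdac1 (0.06 ± 0.11), Hdac2 (-0.08 ± 0.14) and Rcor1 (0.17 ± 0.22) had small log2 differences. Runx1t1, a corepressor of the ETO family, was 1.47 to 47.8 CPM in the low and 0.543 to 33.03 CPM in the expressing pools, with a log2 difference of -0.77 ± 0.59. Of the 11 genes in this list 8 were tested, none had an unadjusted p under 0.05, and their median was 0.04 on the log2 scale, or -0.43 with spike-in size factors, which moved the median of all genes to -0.36.

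Spi1 and Mycn had the largest fitted differences among the 24 tested of 26 hemogenic and stem cell transcription factors, and Myb, which was not tested, is described after them. Spi1 (ENSMUSG00000002111, chr2:91082390-91115756, plus strand) encodes PU.1, the master factor of myeloid cells. The low pools had 2.66 to 18.95 CPM with a median of 5.65, and the expressing pools 0.449 to 78.1 CPM with a median of 22.1. All but 3 expressing pools lay above the highest low pool, whereas E6, with 2 counts, lay below the lowest. The log2 difference was 2.11 ± 0.62 (edgeR adjusted p = 0.495). The same contrast had an adjusted p of 0.00569 when all 4 populations were in the edgeR fit. Without E7 and E8, at 78.1 and 76.1 CPM, it was 1.27, and without E6 and E9 it was 2.35. For scale, the median was 3.20 CPM in ECs without GFP, 194 CPM in HCs with it and 425 CPM in HCs without it.

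Myb, required for definitive blood, was present almost only in 4 of the Runx1-expressing pools. E4, E5, E7 and E8 had 5.34, 9.91, 21.9 and 35.9 CPM, and no other pool of either group exceeded 1.76 CPM. With 10 counts in only these 4 pools, Myb was below the minimum of 5 pools and was not tested. Its level in E8 was above the Gata3-GFP- HC median of 23.3 CPM. Mycn, a growth-promoting MYC family member, was 0.277 to 21.7 CPM in the low pools (median 6.17) and 4.07 to 71.9 CPM in the expressing pools (median 18.5). The same 4 pools were the ones above every low pool, and the log2 difference was 2.04 ± 0.66 (adjusted p = 0.591). Unlike Spi1, Mycn was higher in Gata3-GFP- ECs (35.3 CPM) than in Gata3-GFP- HCs (0.603 CPM).

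Counts of Gfi1, Spi1 and Myb together separated the Runx1-expressing pools from each other. At 10 or more counts per gene, E4, E5, E7 and E8 held all 3, which none of the 10 low pools did. Myb reached 10 counts in these 4 pools only, so this class restates the Myb counts above. E1 and E3 held Gfi1 and Spi1, E2 and E9 held Spi1 alone, and E6 held none despite 168 Runx1 counts. E9 had the highest Runx1 level, 69.02 CPM, with 0 counts of Gfi1 and of Myb. E6 was also the pool highest in mesenchymal markers (4318 CPM) and E9 in macrophage markers (289 CPM). Which cells of these pools held the Runx1 was not tested. Among the low pools 3 held Gfi1 and Spi1 (L4, L6 and L8), 6 held 1 of the genes and L9 held none. The limit of 10 counts was not scaled for depth, so these classes partly depend on it. L9, with 1400824 gene counts, had 8 Spi1 counts, and L6, with 6006894 gene counts, had 16. These counts describe single pools and were not tested.

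**Figure D2:**
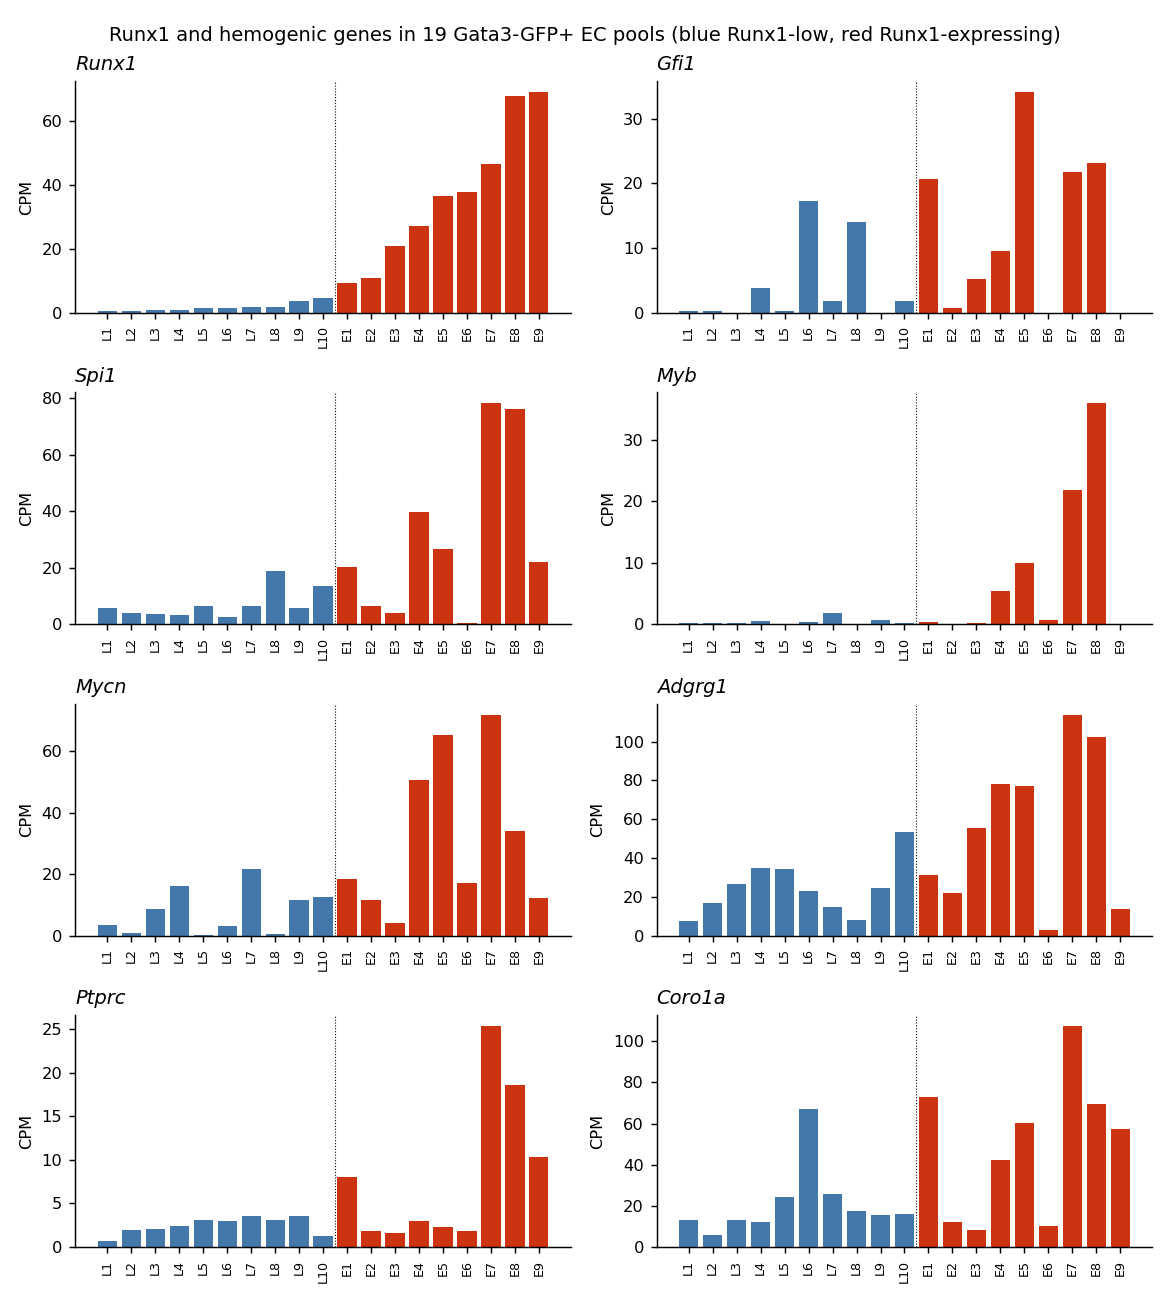
CPM (y axis, a scale for each gene) of Runx1, Gfi1, Spi1, Myb, Mycn, Adgrg1, Ptprc and Coro1a in each of the 19 pools (x axis, ordered by Runx1), blue for Runx1-low and red for Runx1-expressing pools. E7 and E8 are the highest in Spi1 (78.1 and 76.1 CPM), Myb (21.9 and 35.9), Adgrg1 and Ptprc, E6 is close to 0 in Gfi1, Spi1 and Myb, and L6 and L8 have Gfi1 (17.3 and 14.1 CPM) at Runx1 levels of 1.66 and 1.76 CPM.

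Most other transcription factors of the list were at like levels in both groups. Gata2, needed for blood emergence, was 33.7 to 130 CPM (median 97.6) in the low and 64.7 to 137.3 CPM (median 90.01) in the expressing pools, with a log2 difference of 0.04 ± 0.23 whose sign turned with the scaling. Gata3 itself was 54.2 to 178 CPM (median 79.5) and 28.8 to 94.6 CPM (median 78.7), a difference of -0.28 ± 0.24. Its lowest levels were in E8 (28.8 CPM) and E7 (39.8 CPM), and without these pools the difference was -0.09. Without L9 alone, which had the highest level (178 CPM), the difference was -0.10. Erg, an endothelial and stem cell ETS factor, was 59.7 to 104.2 CPM in the low and 48.8 to 89.9 CPM in the expressing pools (-0.42 ± 0.15, adjusted p = 0.700). Ikzf1, the lymphoid factor Ikaros, had 10 or more counts in 3 low and 5 expressing pools (1.42 ± 0.78, adjusted p = 0.938). The stem cell genes Mecom (-0.16 ± 0.13), Mllt3 (-0.13 ± 0.17), Hoxa9 (-0.10 ± 0.21) and Lmo2 (-0.16 ± 0.13) and the hemogenic factors Tal1 (-0.35 ± 0.34) and Fli1 (0.08 ± 0.10) differed little from 0 or by about their standard errors. Of the 24 genes tested, Spi1 and Mycn were higher and Erg lower at an unadjusted p under 0.05, 0 were called, 7 had a positive log2 difference and the median was -0.11.

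Among 22 surface and signalling genes of emerging blood cells, the differences went in either direction. Ptprc (ENSMUSG00000026395, chr1:138062861-138175708, minus strand) encodes CD45, against which the ECs had been sorted. It was 0.670 to 3.57 CPM in the low pools (median 2.67) and 1.63 to 25.4 CPM in the expressing pools (median 2.94). E7, E8, E9 and E1, at 25.4, 18.6, 10.3 and 8.02 CPM, lay above every low pool and the other 5 did not. The log2 difference was 1.72 ± 0.59 (adjusted p = 0.684) and 0.74 without E7 and E8. Even E7 was far from the HC medians of 196 and 398 CPM. Itga2b, which encodes CD41, the other sort marker, was 0 to 14.5 CPM in the low and 0.674 to 13.2 CPM in the expressing pools. Its log2 difference of 0.22 ± 0.74 left the direction undecided. The value ran from -0.16 to 0.72 with 1 pool left out, and was -0.38 without E7 and E8.

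Adgrg1 (ENSMUSG00000031785, chr8:94974751-95014217, plus strand), the adhesion receptor GPR56 of stem cells and intra-aortic clusters, was 7.60 to 53.5 CPM in the low pools (median 23.7) and 2.70 to 113.9 CPM in the expressing pools (median 55.3). The 5 pools above every low pool were E3, E4, E5, E7 and E8, while E6 had the lowest level of all 19. The log2 difference was 1.16 ± 0.48 (adjusted p = 0.814), 0.70 without E7 and E8 and 1.47 without E6 and E9. Adgrg3, the neighboring gene and a related receptor, had 10 or more counts in 3 low and 6 expressing pools, at medians of 1.47 and 12.5 CPM (2.41 ± 0.92, adjusted p = 0.760). E4 and E8 were above every low pool for both genes, whereas E1 had 42.6 CPM of Adgrg3, E7 had none and E3 had 0.271 CPM. The Adgrg3 difference was 0.99 at a Runx1 threshold of 10 CPM, which moves E1 to the low group, and 3.37 without L6. Kit, the stem cell factor receptor, was 20.7 to 81.1 CPM in the low and 16.7 to 136.97 CPM in the expressing pools, with E3, E4, E5 and E7 above every low pool (0.62 ± 0.33, adjusted p = 0.926). The stem cell antigen gene Ly6a (Sca-1) was at 0 in 4 low pools, at 0.714 CPM in L9, at 7.498 to 37.1 CPM in L1, L2, L3, L6 and L7, and at or under 0.353 CPM in all expressing pools but E5 (4.37 CPM), with a log2 difference of -3.94 ± 1.34 (adjusted p = 0.670). Neurl3, a ubiquitin ligase gene used as a mark of hemogenic endothelium, was 27.4 to 108.04 CPM against 0.899 to 107.4 CPM (-0.10 ± 0.46), Cd34 was -0.14 ± 0.10, Procr -0.37 ± 0.14 and Cd47 0.45 ± 0.21 on the log2 scale. Of 18 genes tested, 4 were higher and 2 lower at an unadjusted p under 0.05, 0 were called, and the median was -0.12.

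Genes that blood cells in general share mostly differed little between the groups. Coro1a, an actin regulator of leukocytes (ENSMUSG00000030707, chr7:126699773-126707787, minus strand), was 5.56 to 67.3 CPM in the low pools (median 15.96) and 8.41 to 107.4 CPM in the expressing pools (median 57.3). E1, E7 and E8 lay above L6, the highest low pool, and the log2 difference was 1.20 ± 0.47 (adjusted p = 0.804). Rac2, a GTPase of blood cells, was 1.76 to 8.57 CPM and 4.04 to 23.5 CPM (0.87 ± 0.43, adjusted p = 0.887), highest in E9. The lysosomal gene Laptm5 was lower, at 157.8 to 333 CPM against 140.9 to 255 CPM (-0.31 ± 0.14, adjusted p = 0.850). All 20 genes of this list were called higher in HCs than in ECs among the cells without GFP, with a median log2 difference of 5.88. Across the Runx1 split, 15 were tested, 9 had a positive difference, and the median was 0.20, which turned to -0.12 with spike-in size factors and to -0.05 without E7 and E8.

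Macrophage markers lay on the same side as Spi1, Ptprc and Coro1a. All 10 of 15 macrophage genes that could be tested had a positive log2 difference (median 0.37; -0.16 with spike-in size factors, 0.21 without E6 and E9), led by the lysozyme gene Lyz2 at 4.24 to 24.2 CPM in the low and 4.49 to 62.8 CPM in the expressing pools (1.33 ± 0.44, adjusted p = 0.652). Their summed level was 32.6 to 166 CPM (median 76.3) in the low and 40.7 to 289 CPM (median 130.6) in the expressing pools. Adgre1 and Fcgr1, which define macrophages, were too scarce to test and did not exceed 5.34 CPM in any pool. What part these markers have in the Spi1, Ptprc and Coro1a values was not tested. With E9 alone left out, the pool highest in these markers, the log2 difference of Spi1 was 2.16, of Ptprc 1.67 and of Coro1a 1.17.

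Endothelial and arterial identity genes were at slightly lower levels in the Runx1-expressing pools, short of the threshold. Gja5 (ENSMUSG00000057123, chr3:96904693-97077416, plus strand), the arterial connexin 40, had the lowest adjusted p of the arterial list. It was 811 to 1269 CPM (median 1011) in the low pools and 599 to 845 CPM (median 752) in the expressing pools, and 6 of 9 expressing pools lay below every low pool. The log2 difference was -0.44 ± 0.09 (edgeR adjusted p = 0.308), and DESeq2 called the gene with an adjusted p of 0.00646. Efnb2, the arterial ephrin, had 502 to 738 CPM against 469 to 595 CPM (-0.24 ± 0.07, adjusted p = 0.476). The Notch target Hey2 (-0.38 ± 0.12), the VEGF co-receptor Nrp1 (-0.37 ± 0.11), the kinase Bmx (-0.60 ± 0.18) and the connexin Gja4 (-0.29 ± 0.10) were on the same side. Dll4 (-0.05 ± 0.17) and Notch1 (0.00 ± 0.13) were near 0, and Hey1 (0.18 ± 0.10) was on the positive side. Leaving out L9 alone gave -0.40 for Gja5 and -0.28 for Nrp1, their values nearest 0 with any 1 pool removed. For Efnb2, Hey2, Bmx and Gja4 that pool was L4, E8, E7 and L3. Over the 18 arterial genes, 14 had a negative difference, 6 of them with an unadjusted p under 0.05, 0 were called and the median was -0.19.

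The endothelial list had a median of -0.13, with 17 of 20 genes negative. The angiopoietin receptor genes Tie1 (-0.34 ± 0.09, adjusted p = 0.441) and Tek (-0.24 ± 0.11), the VEGF receptor gene Flt1 (-0.29 ± 0.13), Sox7 (-0.33 ± 0.13) and Vwf (-0.32 ± 0.13) had an unadjusted p under 0.05. Cdh5 was 825 to 1773 CPM in the low and 763 to 1335 CPM in the expressing pools (-0.26 ± 0.13, adjusted p = 0.885), and Pecam1 was level (-0.02 ± 0.08). Leaving out L9 alone brought Cdh5 to -0.17, Vwf to -0.21 and Tie1 to -0.28, their values nearest 0 with any 1 pool removed. For Tek and Sox7 that pool was E8 and E1. All Gata3-GFP+ EC pools remained arterial by their sums, 5823 to 8374 CPM beside a median of 872 CPM in Gata3-GFP- ECs. The apelin receptor gene Aplnr, which is venous, was 0.516 to 57.8 CPM in the low and 1.94 to 193 CPM in the expressing pools (2.17 ± 0.83, adjusted p = 0.769), beside 461 CPM in Gata3-GFP- ECs. E1 had the 193 CPM, and with E1 in the low group, at a Runx1 threshold of 10 CPM, the difference was 0.75, and 1.38 with spike-in size factors and the groups as given. Over 7 tested venous genes the median was 0.25, and -0.19 with spike-in size factors.

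**Figure D3:**
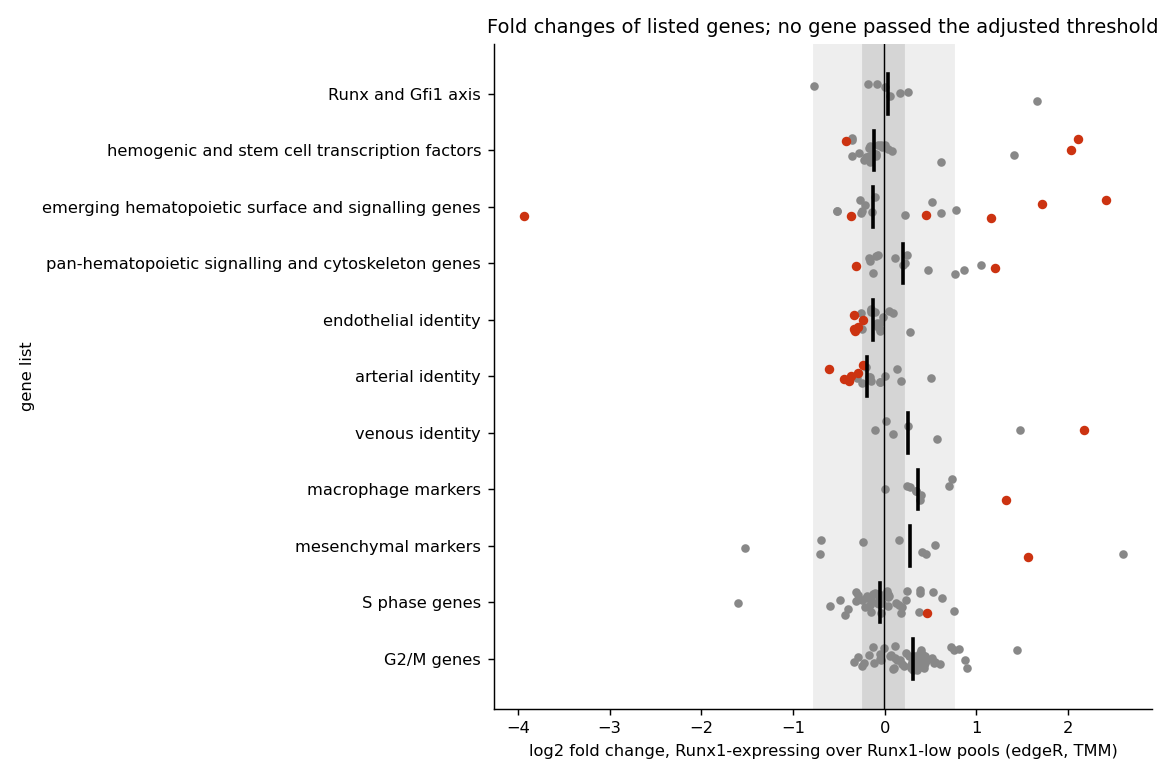
Log2 fold change of Runx1-expressing over Runx1-low pools (x axis, edgeR) for each tested gene of 11 lists (y axis), red where the unadjusted p was under 0.05, with black bars at the list medians and grey bands for the middle 50% and 90% of all 13838 genes. The arterial (-0.19) and endothelial (-0.13) medians are left of 0, those of the macrophage (0.37) and G2/M (0.31) genes right of 0, and no gene passed the adjusted threshold.

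Cell cycle, mesenchymal and sex-linked genes completed the lists. Of 54 G2/M genes, 43 had a positive difference with a median of 0.31, 0 had an unadjusted p under 0.05, and the median was -0.02 with spike-in size factors. S phase genes had a median of -0.04. In the mesenchymal list, Acta2 had a log2 difference of 1.56 and Col1a1 of 2.60, which were 0.23 and -3.06 without E6 alone. The Y-linked genes Uty (4.90 to 48.9 against 4.58 to 21.98 CPM, -1.31 ± 0.38) and Ddx3y (-0.82 ± 0.35) were lower in the expressing pools at an unadjusted p under 0.05, and every pool had both.

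The genes with the lowest p-values across the transcriptome were mostly outside the hemogenic lists, and are named here after their values were seen. Arhgap20 reached 10 counts in 6 low pools and no expressing pool, and Ramp3 in 5 expressing pools and no low pool, so each passed the filter on low counts only through the group where it was high. Arhgap20 had the smallest adjusted p in edgeR, 0.0815. It was 0 to 8.77 CPM in the low pools, while the 9 expressing pools held 2 counts in all beside 182 in the low pools, a ratio of 0.0112 (95% exact interval 0.00135 to 0.0412, counting error only). With the filter raised to 10 counts in 9 pools, which leaves it out, the smallest adjusted p of any gene was 0.485. Ramp3, a receptor co-factor for adrenomedullin, was at most 0.772 CPM in the low pools and 0 to 29.6 CPM in the expressing pools, with E3, E6 and E7 at or under 0.271 CPM (adjusted p = 0.308). The growth-related genes Npm1 (495 to 682 against 659 to 915 CPM), Ranbp1 (209 to 283 against 271 to 417 CPM) and Rpl12 (39.4 to 60.3 against 59.8 to 85.7 CPM) overlapped little between the groups: 6, 8 and 8 of 9 expressing pools lay above every low pool. Their log2 differences were 0.38 ± 0.08, 0.40 ± 0.08 and 0.53 ± 0.12 (adjusted p = 0.308, 0.308 and 0.339), or 0.02, -0.03 and 0.12 with spike-in size factors. These genes have near-identical copies in the genome, and Gm49776 overlaps 16.9% of the exon bases of Ranbp1, so their counts are uncertain.

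Runx1 was also fitted as a continuous measure. Values are per doubling of Runx1, as log2(CPM + 1), on the log2 scale. Spi1 was higher by 0.59 (adjusted p = 0.363), Mycn by 0.56, Ptprc by 0.46 (adjusted p = 0.462) and Adgrg1 by 0.35. Gja5 was lower at -0.12 (adjusted p = 0.220). The value of Gfi1 was 0.45 ± 0.27, with an edgeR unadjusted p of 0.109. Adgrg3 (0.48, unadjusted p = 0.118), Aplnr (0.60, unadjusted p = 0.0742) and Laptm5 (-0.06, unadjusted p = 0.118) no longer had an unadjusted p under 0.05. The same held for Tek (-0.05, unadjusted p = 0.106), Vwf (-0.06, unadjusted p = 0.0798) and Ddx3y (-0.19, unadjusted p = 0.0622). No gene was called, and 648 had an unadjusted p under 0.05.

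For scale, these differences were set beside the difference of HCs against ECs among the cells without GFP. Those populations share no pool with the split, but may share embryos. The HCs had a median of 10532 CPM of macrophage markers, and the ECs 872 CPM of arterial markers. Their contrast is therefore not one of EHT alone. There edgeR called 6737 of 15502 genes (43.5%), 3460 higher (22.3%) and 3277 lower (21.1%) in HCs. The 2613 genes higher in HCs that were also tested in the split had a median split difference of 0.03, the 3115 lower in HCs -0.05, and the 7530 others 0.01. At an unadjusted p under 0.05, 4.55% of the genes higher in HCs were higher in the Runx1-expressing pools, beside 2.66% of all genes, and 4.88% of those lower in HCs were lower, beside 3.04%. Single genes sat differently: Spi1 (6.95 in HCs against ECs, 2.11 in the split), Ptprc (6.57 and 1.72), Coro1a (6.44 and 1.20) and Adgrg1 (2.84 and 1.16) were on the positive side of both scales, Cdh5 (-6.70 and -0.26), Tie1 (-4.83 and -0.34) and Gja5 (-2.39 and -0.44) on the negative side of both, and Mycn (-3.54 and 2.04), Adgrg3 (-2.22 and 2.41) and Kit (-1.71 and 0.62) on opposite sides.

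**Figure D4:**
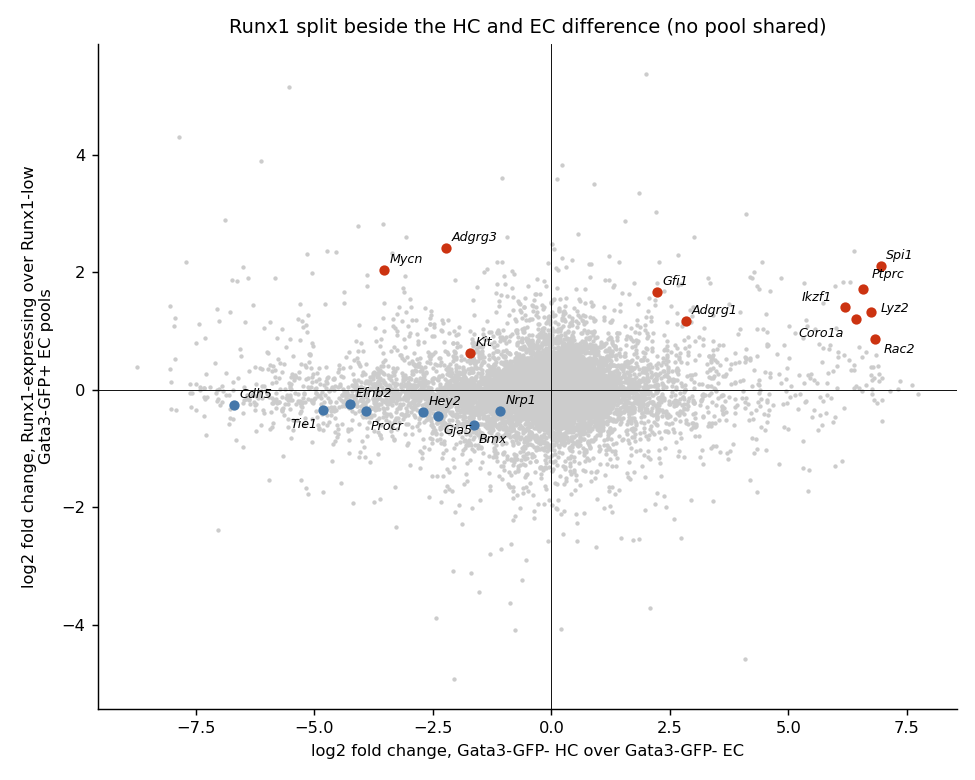
Log2 fold change of Runx1-expressing over Runx1-low Gata3-GFP+ EC pools (y axis) beside that of Gata3-GFP- HCs over Gata3-GFP- ECs (x axis), 1 grey point a gene, with named genes higher (red) or lower (blue) in the split. Spi1 lies at 6.95 and 2.11, Mycn at -3.54 and 2.04, and most of the cloud stays near 0 on the y axis over the whole width of the x axis.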

How the data were processed

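RNA of 20-cell pools was amplified by Smart-seq2 with 92 ERCC spike-in RNAs and sequenced as single-end reads of 125 bases. The authors deposited raw HTSeq read counts per Ensembl gene. The submitters' processing notes name GSNAP 2015-09-29, HTSeq 0.5.3p3 and mm10, whereas the study's methods name STAR with Ensembl release 81, and whether strand was used is not given in the sources used here. In the 19 pools, 13.2 to 20.4% of reads fell in no gene and 8.71 to 16.1% were ambiguous, and such rows were left out. No 2 pools had identical counts.

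CPM was the count over the sum of gene counts. Testing took the genes that reached 10 counts in 5 or more of the compared pools and was done with edgeR 4.0.16 (robust quasi-likelihood, TMM size factors, Benjamini-Hochberg adjustment over all genes). A call needed an adjusted p below 0.01 together with a log2 difference larger than 0.1. Fold changes come from these fits and levels are plain CPM. The fits were tested on simulated data. DESeq2 1.42.0, scran 1.30.0 and scanpy 1.11.5 served as alternatives. Positions are from GENCODE M21. For 45143 of 46078 gene IDs the annotation gave a symbol.

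The pools were split by a measured level, Runx1, so the groups are not conditions of the study. The members, the gene lists and the threshold were chosen with earlier results of these data known. The genes named were Runx1, Gfi1, the sort genes, members of the first 4 lists (Runx and Gfi1 axis, hemogenic transcription factors, emerging surface genes, pan-hematopoietic genes) and any called gene. All others, such as Gja5, Aplnr, Lyz2, Acta2, Arhgap20 and Npm1, were chosen after their values were seen.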

Additional observations from a re-analysis of the deposited data

Results flagged for a closer look

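In 25 of 162 groups of values examined, a single pool lay farther from the rest of its group than Dixon's 95% criterion allows. Chance alone flags about 1 in 20 groups of normally distributed values. CPM of scarce genes are not so distributed, so the 25 groups cannot be compared with that share. In the Runx1-expressing pools, E6 stood out for Acta2 (2600 CPM), Col1a1 (703 CPM), the summed mesenchymal markers (4318 CPM) and a low sum of pan-hematopoietic genes (517 CPM, the next pool 714 CPM). E9 stood out for Runx3 (4.98 CPM, the next pool 0.543 CPM), Rac2 (23.5 CPM) and C1qb (41.6 CPM). E7 stood out for Gfi1b (8.46 CPM, the next pool 1.07 CPM), E5 for Ly6a (4.37 CPM), E8 for the potassium channel subunit gene Kcne3 (78.8 CPM), E4 for Vwf (1940 CPM) and the summed sex-linked genes (666 CPM), and E1 for the summed S phase genes (3186 CPM).

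In the Runx1-low pools, the shallowest pool, L9, stood out for Gata3 (178 CPM), Nrp1 (1990 CPM), Tie1 (987 CPM), Vwf (2816 CPM), Ddx3y (109.2 CPM) and the summed Runx and Gfi1 axis (947 CPM). L6 stood out for Neurl3 (108.04 CPM), Adgrg3 (15.6 CPM) and Coro1a (67.3 CPM), beside its Gfi1 level of 17.3 CPM. The others were L7 for Myb (1.76 CPM, 3 counts), L1 for Ly6a (37.1 CPM) and L4 for the cell cycle regulator Rgcc (3.23 CPM).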

How the results depend on the processing

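With edgeR, 0 genes were called for the split under each size factor, filter, Runx1 threshold and covariate tried, and 0 to 0 when each pool was left out in turn, when 707 to 850 genes had an unadjusted p under 0.05 and the smallest adjusted p ran from 0.0156 to 0.243. The all-population edgeR fit called 14 higher and 3 lower. DESeq2 called 3 higher (Rgcc, Kcne3, Ramp3) and 3 lower (Fosb, Arhgap20, Gja5), of which Kcne3, Ramp3, Fosb and Arhgap20 reached 10 counts in only 1 of the groups. At an unadjusted p under 0.05 the spike-in size factors gave 1716 genes (49 higher, 1667 lower) with the median of all genes at -0.36, and no filter gave 3459 of 29025 genes. Limits: levels under 10 CPM rest on few reads, the embryo of a pool is unknown, and the groups were cut from 1 sorted population. Beside the tests of genes, at 2 CPM of Runx1 the difference of expressing minus low pools turned to -114236 gene counts and to -92.5 genes with at least 10 counts. At that threshold the sign of the log2 difference also turned for Gata3 (0.12), Itga2b (-0.088), Cbfb (-0.0096) and Neurl3 (0.063). At 10 CPM it turned for Gata2 (-0.0056). Larger moves kept their sign: at 10 CPM Aplnr went from 2.17 to 0.75, Adgrg3 from 2.41 to 0.99 and Rgcc from 3.59 to 1.90, and at 2 CPM Arhgap20 from -5.63 to -2.37. Spike-in size factors turned Cbfb (-0.43), Gata2 (-0.37), C1qb (-0.26) and Ranbp1 (-0.033), and DESeq2 size factors Cbfb (-0.0018). The remaining alternatives were chosen after seeing the data. Without E7 and E8, Itga2b was -0.38 and Cbfb -0.061. Without E6 and E9, Cbfb was -0.056, Gata2 -0.026, C1qb -0.0017 and Col1a1 -2.96. The cause was not tested. HC against EC calls stayed within 1.5 times of 3460 higher and 3277 lower in each alternative, from 3063 and 2716 with spike-in size factors to 4440 and 4088 with no filter. No paired analysis was possible because the Runx1 groups are parts of 1 population that share no replicate number, and the headers carry none.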

Other observations

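Among 20 cytokine and inflammatory receptor genes, 15 were tested across the Runx1 split, with a median log2 difference of -0.10, and at an unadjusted p under 0.05 Il6ra was higher and Il1r1 lower. Of 20 tested Notch pathway genes the median was -0.12, and of 17 BMP and TGF-beta pathway genes -0.06, with no unadjusted p under 0.05 in the latter. The 18 tested G1 regulators had a median of 0.11. Of 11 megakaryocyte and platelet genes, 8 were tested with a median of 0.33, and Clec1b was higher at an unadjusted p under 0.05. Of 12 granulocyte and mast cell genes, 4 could be tested (median 0.11), and Prtn3 was higher at an unadjusted p under 0.05. Of 13 erythroid genes 3 were tested (median 0.18), and of 12 lymphoid genes 4 (median 0.01). Neural crest and sympathetic markers were detected in all 19 pools, at 339 to 861 CPM in the low and 441 to 630 CPM in the expressing pools, beside a median of 46.9 CPM in Gata3-GFP- ECs. None of these genes was called by edgeR, 5.69% of all genes had an unadjusted p under 0.05, and with spike-in size factors the positive medians turned negative except that of the megakaryocyte and platelet genes (0.03).

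Kcne3 and Fosb were among the genes with the lowest p-values, but Kcne3 reached 10 counts in 6 expressing and no low pools and Fosb in 6 low and no expressing pools, so each passed the filter on low counts only through the group where it was high. Kcne3 was 0 to 4.68 CPM in the Runx1-low and 0.801 to 78.8 CPM in the Runx1-expressing pools (edgeR adjusted p = 0.339), beside 205 CPM in Gata3-GFP- ECs. The immediate early gene Fosb was 0 to 20.3 CPM in the low pools and did not exceed 1.07 CPM in any expressing pool (adjusted p = 0.339). Rgcc, with 10 counts in 1 low and 6 expressing pools, was 0 to 3.23 CPM in the low and 0.353 to 22.6 CPM in the expressing pools (adjusted p = 0.339).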
